A study of Mus musculus with 6 samples.

Results

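Potassium channel genes and HCN channel genes were examined in the retina of wild-type C57BL6/J mice. All genes among the rows whose symbol begins with Kcn or Hcn were taken, except Kcnj10, which gave 81 of 15465 genes in 20 subfamilies. The rule used symbols only and no measured value. RefSeq lists 97 protein-coding symbols of this pattern, and 16 of them have no row. Counts by family or role below therefore cover only genes with a row. RNA sequencing covered 3 biological replicates of isolated retina, each pooled from 5 mice, and the 2 technical replicates of each share 1 column of values, so n is 3. The labels used here state no age or sex, and no treatment, transgene or other genotype enters the values described. There is no second group, so no p-value below compares conditions, and each rests only on these 3 pools. The limma p-values set the spread of a gene between the pools against that of genes of its level. The sign-flip p-values ask whether a mean log2 ratio between genes differs from that of equal levels. The numbering in the source labels runs across that of the titles, and the SDs rest on the titles. If the source labels were right, the 3 columns would not be independent. Levels are RPKM, reads scaled by transcript length and by the total of the library. That unit was inferred from the values, and how many reads stand behind each value is unknown.

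Potassium channels let potassium leave the cell and set the resting potential and the return after excitation. Voltage-gated Kv channels are tetramers of pore-forming subunits, which silent subunits and cytoplasmic or membrane auxiliary proteins modify. Inward rectifiers and the leak channels of the K2P family act near rest, and calcium- or sodium-activated channels couple the current to ion entry. HCN channels open on hyperpolarization and pass a mixed cation current. In photoreceptors, Kv channels that contain the silent subunit Kv8.2 and HCN channels shape the voltage response to light.

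The tissue label was checked against markers. All 8 rod, 6 cone, 6 bipolar, 4 amacrine, 4 ganglion, 3 horizontal and 4 Muller glia markers were detected at 1 RPKM or more throughout. Markers of neighbouring tissue were present as well, with 8 of 8 lens markers and 7 of 8 markers of pigment epithelium and choroid at that level. Of the markers of cornea and conjunctiva 4 of 5 were detected, and of skeletal muscle 3 of 5. Their sums were highest in replicate 2, at 18.5, 25.5 and 11.8 RPKM for cornea and conjunctiva and 8.26, 23.4 and 5.88 for muscle. These levels are unscaled, and without scaling 64.3% of all genes tested below were highest in replicate 2. The cornea and conjunctiva markers did not all follow their sum. Krt5 and Aldh3a1 were highest in replicate 2, but Krt12 had 2.5, 1.24 and 3.36 RPKM and Dcn 10.7, 9.0 and 1.97. Krt14 stayed at 0.05 RPKM or less. Summed levels of the lens markers were 2999, 2305 and 2863 RPKM in replicates 1, 2 and 3. Cryaa, the largest part of that sum, had 2058, 1569 and 1395 RPKM, while the median lens marker had 73.2, 36.9 and 203. By the limma test below, 5 of the 8 lens markers were called as varying between pools, against 5.41% of all genes. These 5 were highest in replicate 3, and the other lens markers were highest in replicate 1. Summed levels of the pigment markers were 502, 477 and 271 RPKM. In whole retina, fewer cells of a type and less RNA per cell cannot be told apart.

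Of the 81 channel genes, 57 (70.4%) reached 1 RPKM in each replicate (called detected below), against 77.5% of all genes. A mean of at least 10 RPKM was reached by 23 (28.4%), against 37.8%, and a mean of 100 RPKM or more by 3, against 2.11% of all genes. The median channel gene had 3.99 ± 0.33 RPKM (SD over replicates, n = 3), and the median of all genes was 6.09 ± 0.40. A mean under 1 RPKM was found for 18 channel genes, against 18.8% of all genes. The summed level was uneven, since the first 4 genes held 51.4% ± 0.315 of it and the first 20 held 81.1% ± 0.502.

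A caution applies to 11 of the 81 genes. Their symbols equal another mouse symbol followed by a digit, such as Kcnk1 and Kcnk12, or are such a shorter symbol, and are called digit-extended symbols here. They are Kcna1, Kcnj1, Kcnj11, Kcnj12, Kcnj13, Kcnj14, Kcnj15, Kcnk1, Kcnk12, Kcnk13 and Kcnk15. Several of these rows differed between replicates by powers of 10, as shown for the Kcnk and Kcnj rows below, and the level of each is less certain than that of the other 70.

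**Figure D1:**
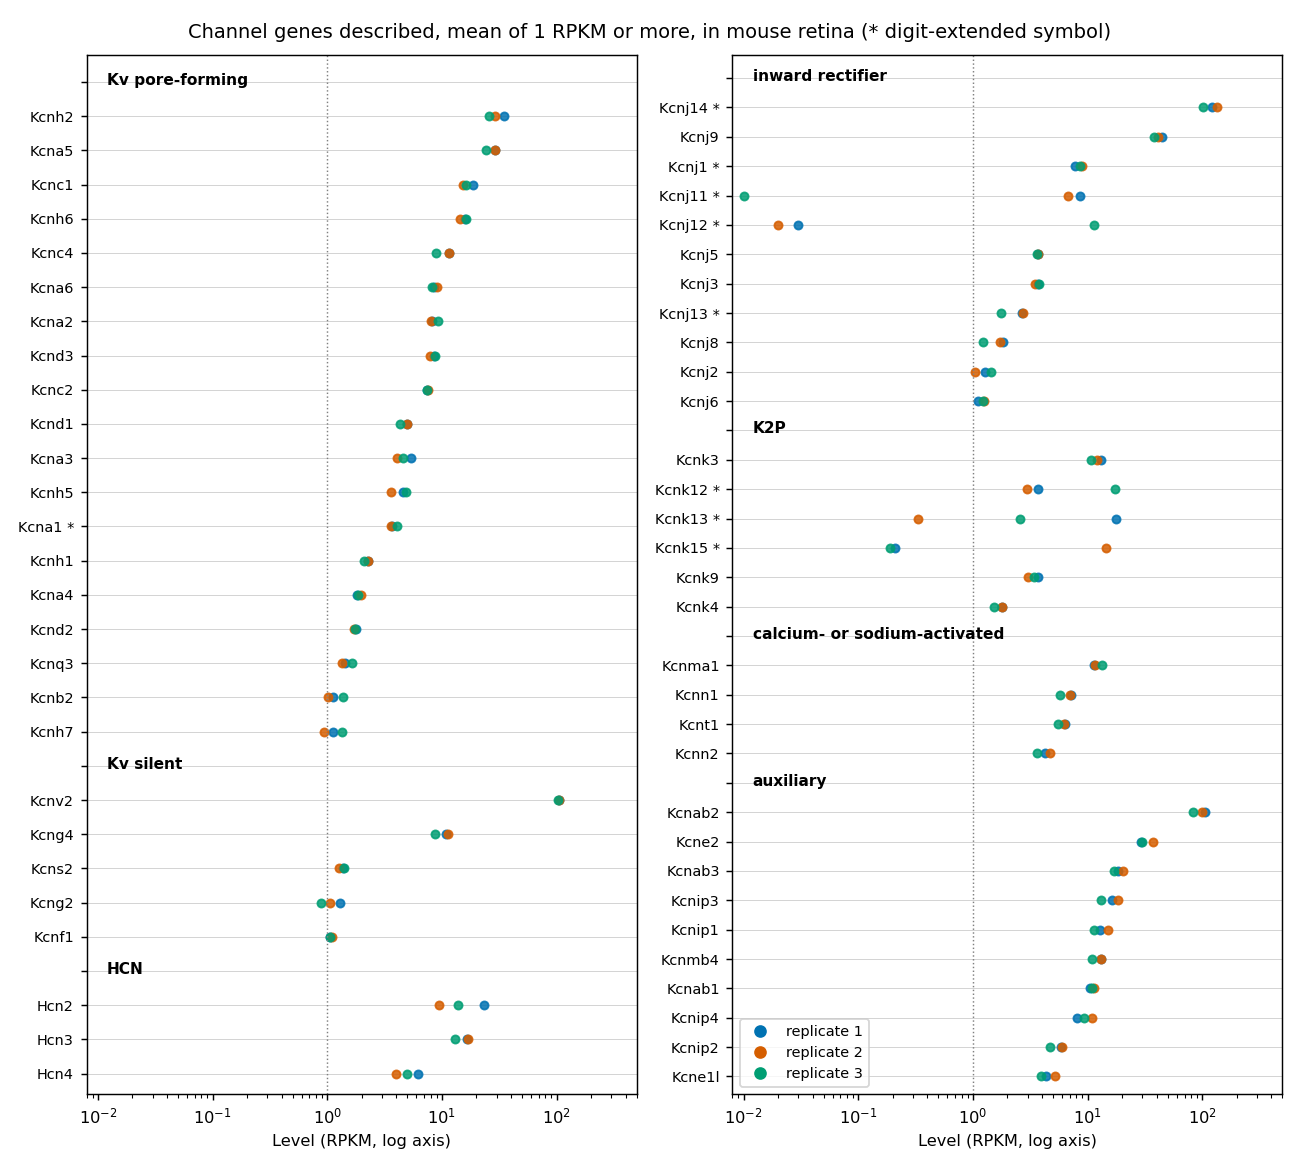
Level of the channel genes described here that had a mean of 1 RPKM or more, by role, with RPKM on a log axis and 1 point per replicate. Most genes have their 3 points close together, and the widest gaps are on rows with an asterisk (digit-extended symbols) such as Kcnj12.

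The pore-forming Kv genes, 26 in number, summed to 443 ± 28.2 RPKM, or 40.0% ± 2.15 of all channel genes, and 22 of them were detected. Without the digit-extended symbols their share was 46.5%, and after multiplication by transcript length it was 58.4%. Kcnb2, which encodes Kv2.2, had 1.12, 1.01 and 1.36 RPKM in replicates 1, 2 and 3. Ratios between genes were tested with the exact two-sided sign-flip test, whose smallest p with 3 replicates is 0.25, so no ratio can pass a threshold of 0.05. It was 0.25 for each ratio of a leading gene to the next one given below with 1 direction in 3 of 3 replicates.

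Kcnv2 encodes Kv8.2, which forms no channel alone and assembles with other Kv subunits, and its loss in people causes a cone dystrophy with altered rod responses. Kcnv2 had 106, 104 and 104 RPKM in replicates 1, 2 and 3 (mean 105 ± 1.16). Its coefficient of variation, 1.11%, was the lowest after that of Kcnj5 among the 63 channel genes with a mean of at least 1 RPKM.

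The other silent subunits were far lower. Kcng4, which encodes Kv6.4, had 10.9, 11.2 and 8.72 RPKM, and Kcnv2 exceeded it 10.1-fold (3.34 ± 0.19 on the log2 scale). Kcns2 had 1.35 ± 0.0666 RPKM, Kcng2 1.08 ± 0.207 and Kcnf1 1.06 ± 0.0231. Kcns1, Kcns3, Kcng1 and Kcng3 had means between 0.24 and 0.493 RPKM. Of the 9 silent subunit genes, 4 were detected, and Kcnv2 supplied most of their sum of 120 ± 2.52 RPKM.

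Among the ether-a-go-go related genes, Kcnh2 (ERG1, the channel of the cardiac rapid delayed rectifier) was highest, with 34.9, 29.2 and 25.9 RPKM. Kcnh6 (ERG2) followed with 15.9, 14.5 and 16.2 RPKM, below Kcnh2 in each replicate by 0.94 ± 0.24 on the log2 scale. The replicates of Kcnh2 and Kcnh6 did not overlap. Kcnh5 had 4.34 ± 0.655 RPKM, Kcnh1 2.22 ± 0.113, Kcnh7 1.14 ± 0.200 and Kcnh8 0.293 ± 0.0115. Kcnh2 held 55.9% ± 4.25 of the Kcnh sum.

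Within the Shaker-type Kcna genes, Kcna5 (Kv1.5) had 29.0, 29.1 and 24.2 RPKM and took 49.9% ± 3.15 of the sum. Kcna6 (8.59 ± 0.428) and Kcna2 (8.48 ± 0.742) came next with overlapping values, then Kcna3 (4.66 ± 0.638). Kcna1 (3.76 ± 0.231, a digit-extended symbol) and Kcna4 (1.89 ± 0.0666) were lower, and Kcna7, a gene of muscle, had 0.0433 RPKM. The lead of Kcna5 is per length, and after multiplication by transcript length Kcna2 came first.

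The Kv3 genes are known for fast repolarization in rapidly firing neurons. Kcnc1 had 18.8, 15.1 and 16.3 RPKM. Kcnc4 had 10.7 ± 1.52 and Kcnc2 7.48 ± 0.101 RPKM, with replicate ranges that did not overlap.

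The Kv4 genes carry the A-type current. Kcnd3 (8.32 ± 0.431 RPKM) exceeded Kcnd1 (4.73 ± 0.349) and Kcnd2 (1.76 ± 0.04), with replicate ranges that did not overlap. Of the Kcnq genes, which give the M-current in neurons, Kcnq3 had 1.44, 1.34 and 1.65 RPKM, while Kcnq1, the heart and epithelial member, had 0.167 ± 0.0351.

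**Figure D2:**
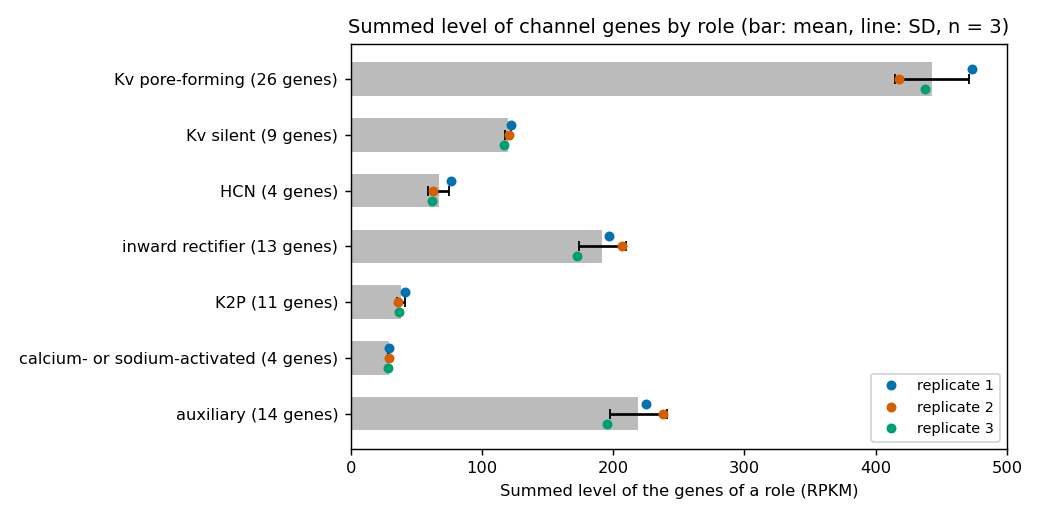
Summed RPKM of the channel genes of each role, with bars for the mean of 3 replicates, lines for the SD and points for the replicates. The pore-forming Kv genes sum to 443 RPKM, and the auxiliary genes (219) and inward rectifiers (192) come next.

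Of the HCN genes, Hcn3 had 16.6, 16.8 and 12.9 RPKM in replicates 1, 2 and 3 (mean 15.45 ± 2.21). Hcn4, known from cardiac pacemaker cells, had 6.23, 4.01 and 5.01 RPKM (mean 5.08 ± 1.11). Hcn3 exceeded Hcn4 in each replicate, and their values did not overlap.

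Hcn2 had 23.4, 9.35 and 13.7 RPKM in replicates 1, 2 and 3, the widest spread among the 54 channel genes tested below that have other symbols. It lay above Hcn3 in replicates 1 and 3 and below it in replicate 2. The ratio of Hcn2 to Hcn3 was 0.49, -0.84 and 0.09 on the log2 scale (mean -0.09 ± 0.68), less than the spread between replicates.

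Inward rectifiers were led by Kcnj14, which encodes Kir2.4, with 121, 135 and 101 RPKM (mean 119 ± 17.1). It has a digit-extended symbol. Kcnj9, the G protein-gated subunit GIRK3, had 44.6, 41.4 and 37.8 RPKM (mean 41.3 ± 3.39). Its partners were lower, with Kcnj5 (GIRK4) at 3.69 ± 0.0321, Kcnj3 (GIRK1) at 3.62 ± 0.144 and Kcnj6 (GIRK2) at 1.19 ± 0.0737 RPKM. Among the strong rectifiers, Kcnj2 (Kir2.1) had 1.25 ± 0.206 and Kcnj4 (Kir2.3) 0.267 ± 0.0153. Of 13 inward rectifier genes, 9 were detected in every replicate.

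The region before the Kcnj9 start is shown because, of the 20 genes of highest mean, 12 had promoter windows and only those of Kcnj9 held TAATCC, the core letters of the site of the photoreceptor factor CRX. The sequence covers the 250 bases before the RefSeq start (GRCm38.p6, chr1:172329323-172329572, minus strand), and capitals mark the reverse complement of TAATCC.

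Kcnj9: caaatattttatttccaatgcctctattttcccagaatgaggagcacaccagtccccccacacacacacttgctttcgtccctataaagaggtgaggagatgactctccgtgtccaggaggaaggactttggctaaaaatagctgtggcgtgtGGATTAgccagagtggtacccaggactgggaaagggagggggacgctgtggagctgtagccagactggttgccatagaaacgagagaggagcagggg

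Windows of 300 bases (250 before to 50 after a start) were found for 58 of the 81 genes, 78 windows in all. TAATCC on either strand was in 2 of the 78 (2.56%), those of Kcnj9 and Kcng4, against 7.06% of all 32851 windows. TGCTGA, part of the response element of the rod factor NRL, was in 14.1% against 19.5%. GGGCGG, the GC box, was in 53.9% against 35.7%, and TATAAA was in 5.13% against 13.6%. The Kcnj9 window also held TATAAA. None of the 4 motifs lies inside another, and a match is a description of letters and not of binding.

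Kir6 channels need sulfonylurea receptors to reach the membrane. Kcnj8 (Kir6.1), a gene of pericytes and smooth muscle, had 1.83, 1.73 and 1.22 RPKM. All 4 vascular markers were detected, with sums of 61.9, 62.7 and 40.5 RPKM in replicates 1, 2 and 3. Of them Acta2 (smooth muscle actin) had 21.3, 20.8 and 6.3 RPKM, Cldn5 18.7, 20.3 and 12.4 and Pecam1 2.93, 3.24 and 2.54, all lowest in replicate 3. Kdr, an endothelial receptor, had 19.0, 18.5 and 19.2 RPKM and was not, and only Acta2 was called by the limma test below. The part of these markers in the Kcnj8 values was not tested. Abcc9, the receptor SUR2, had 0.61 ± 0.05 RPKM and Abcc8, the receptor SUR1 that joins Kir6.2, had 4.46 ± 0.364. Kcnj13 (Kir7.1), a channel of the pigment epithelium with a digit-extended symbol, had 2.7, 2.71 and 1.74 RPKM. The median of the 8 pigment markers was 46.5, 39.1 and 14.9 RPKM, also lowest in replicate 3, with Best1 at 0.35, 0.37 and 0.29 and none at 0. Rpe65, with a digit-extended symbol, went another way, at 6.25, 20.1 and 6.74 RPKM, lowest in replicate 1. Each of the other pigment markers was lowest in replicate 3. Levels in this paragraph are unscaled, and without scaling 54.6% of all genes tested below were lowest in replicate 3. The part of the pigment markers in the Kcnj13 values was not tested.

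Kcnj11, which encodes Kir6.2, had 8.57, 6.79 and 0.01 RPKM, and Kcnj12, which encodes Kir2.2, had 0.03, 0.02 and 11.5. Kcnj11 was thus low in replicate 3 alone and Kcnj12 high in replicate 3 alone. Kcnj1 (Kir1.1) was even, with 7.81, 8.99 and 8.63 RPKM, and Kcnj15 had at most 0.01.

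A similar pattern was seen in the K2P family of leak channels. Kcnk13 had 17.5, 0.33 and 2.58 RPKM, Kcnk15 had 0.21, 14.5 and 0.19, and Kcnk12 had 3.73, 2.95 and 17.4. In each replicate 1 of these 3 rows had a value between 14.5 and 17.5, another a value between 2.58 and 3.73 and the other a value between 0.19 and 0.33. The high value stood on Kcnk13 in replicate 1, Kcnk15 in replicate 2 and Kcnk12 in replicate 3. Kcnk1 (TWIK-1), on the remaining row of this kind, was listed at 0 in every replicate. The means of these rows describe no single pool, and the cause was not tested.

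**Figure D3:**
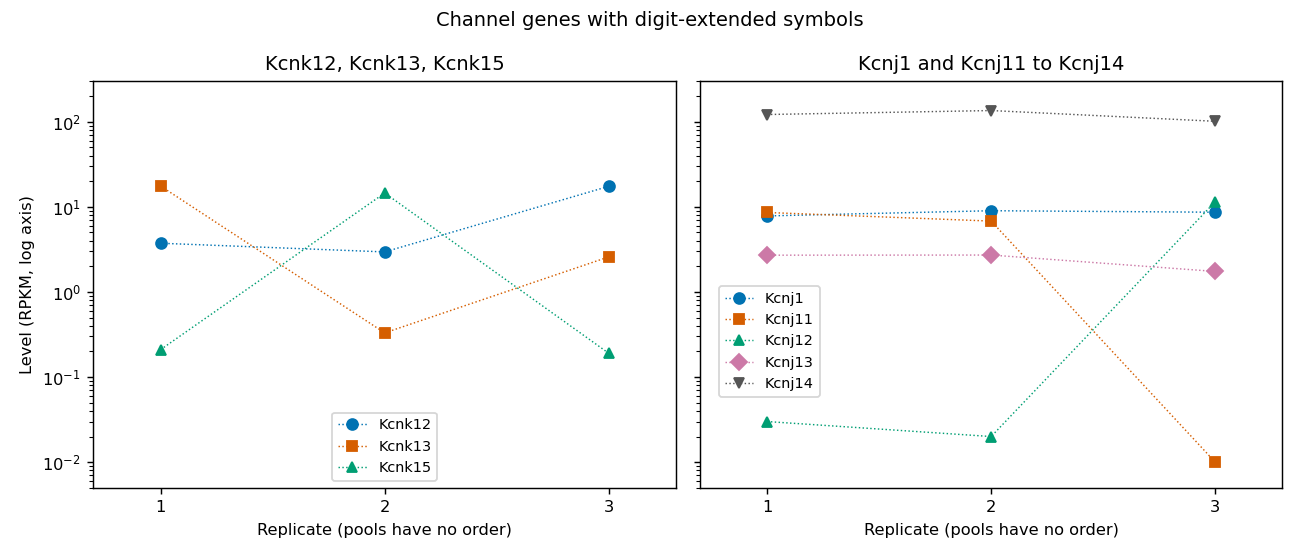
RPKM on a log axis of channel genes with digit-extended symbols in each replicate, for Kcnk rows on the left and Kcnj rows on the right. The high Kcnk value of 14.5 to 17.5 lies on another gene in each replicate, and Kcnj11 and Kcnj12 change places in replicate 3.

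The K2P genes with other symbols were mostly low. Kcnk3 (TASK-1), an acid-sensitive leak channel, had 13.1, 12.0 and 10.7 RPKM, and Kcnk9 (TASK-3) had 3.39 ± 0.335. Kcnk4 (TRAAK), a mechanosensitive member, had 1.70 ± 0.156 and Kcnk2 (TREK-1) 0.863 ± 0.0971 RPKM. Kcnk5, Kcnk6 and Kcnk7 had means between 0.0667 and 0.153 RPKM. Of these 7 genes, 3 were detected, namely Kcnk3, Kcnk9 and Kcnk4. With the digit-extended rows included, 4 of 11 K2P genes were detected, Kcnk12 among them. The 11 genes held 3.43% ± 0.172 of the channel sum, a share that rests in part on the Kcnk12, Kcnk13 and Kcnk15 rows.

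All 4 calcium- or sodium-activated channel genes that have a row were detected. Kcnma1, the BK channel, had 11.3, 11.6 and 13.3 RPKM, and its neuronal partner Kcnmb4 had 13.1, 13.0 and 10.9. The BK pore and its beta 4 subunit differed by -0.03 ± 0.28 on the log2 scale, less than the spread between replicates. Kcnmb2 (0.647 ± 0.0404 RPKM) and Kcnmb1 (0.0533 ± 0.0115), the smooth muscle beta subunit, were low. The SK genes Kcnn1 and Kcnn2 had 6.61 ± 0.791 and 4.18 ± 0.516 RPKM, and Kcnt1, a sodium-activated channel, had 5.997 ± 0.409.

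The auxiliary genes held 19.8% ± 1.45 of the channel sum, and 10 of 14 were detected in every replicate. Kcnab2, the Kv beta 2 subunit, had 106, 99.1 and 83.4 RPKM and exceeded Kcnab3 5.14-fold and without overlap (18.2, 20.4 and 17.1 RPKM). Kcnab1 had 10.9 ± 0.366 RPKM. Kcne2, a single-span subunit that binds KCNQ1 and ERG channels, had 29.4, 37.3 and 29.6 RPKM, and Kcne1l had 4.48 ± 0.655. Kcne4 and Kcne3 had 0.143 and 0.0167 RPKM.

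The Kcnip genes encode calcium sensors that bind Kv4 channels. Kcnip3, also known as calsenilin or DREAM, had 16.3, 18.3 and 13.1 RPKM and Kcnip1 had 12.7, 15.1 and 11.3. Kcnip4 (9.46 ± 1.46) and Kcnip2 (5.52 ± 0.746) followed. The 4 Kcnip genes summed to 43.9 ± 6.03 RPKM and the 3 Kcnd genes they serve to 14.8 ± 0.394.

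Partner genes outside the symbol rule gave further context. Of 29 partner genes listed, 27 had a row and 24 were detected. By the limma test of variation between pools described below, 0 of the 24 were called, where 5.41% of all genes were called. At an unadjusted p under 0.05 (limma) there were 0 as well, against 1045 of the 12562 genes tested. With so few genes these counts say nothing particular about the partners. Pex5l, which encodes the HCN subunit TRIP8b, had 133, 158 and 138 RPKM, above Hcn2, Hcn3 and Hcn4 in every replicate. Of the Kv2 partners, Vapa had 44.6 ± 5.95, Vapb 19.2 ± 2.42 and Amigo1 12.1 ± 1.10 RPKM. The Kv4 partners Dpp6 and Dpp10 had 14.1 ± 1.53 and 1.66 ± 0.167. The scaffold Dlg4 (PSD-95) had 210 ± 10.1 RPKM, and Calm2 and Calm3, which encode the calmodulin that SK and KCNQ channels carry, had 82.8 ± 16.2 and 235 ± 28.4.

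The order of the leading genes held in each pool for most subfamilies. In 15 of the 16 subfamilies with more than 1 gene, the same gene was highest in 3 of 3 replicates. The exception was Kcnk, in which Kcnk3 had the highest mean and was highest in 0 replicates. The leading gene took the larger part of the subfamily sum in 11 of 16. Over the whole set, the replicate ranges of Kcnj14, Kcnv2 and Kcnab2 overlapped. Compared within replicates, both Kcnj14 and Kcnv2 exceeded Kcnab2 in 3 of 3, for Kcnv2 by as little as 105.9 against 105.85 RPKM in replicate 1. Kcnj14 and Kcnv2 changed order, with 101 and 104 RPKM in replicate 3. The ranges of Kcnh2 and Kcna5 likewise overlapped, although Kcnh2 was higher in each replicate (29.15 against 29.07 RPKM in replicate 2). Kcnj9 lay apart from Kcnab2 above and Kcne2 below.

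The 3 pools were then compared, to see which channel genes varied more than genes of their level. The variance of each gene was set against limma's robust trended prior for 12562 genes, those whose mean reached 1 RPKM, 63 of them channel genes, on scaled log2(RPKM + 0.1) values. With Benjamini-Hochberg adjustment at 0.05, 5.41% of all genes were called and 6 of the 63 channel genes (9.52%). Digit-extended symbols gave 5 of the 6, namely Kcnj11, Kcnj12, Kcnk12, Kcnk13 and Kcnk15, of 9 such channel genes tested. Over all genes 29.8% of digit-extended symbols were called. With replicate 3 left out, Kcnj11 (adjusted p = 0.892) and Kcnk12 (adjusted p = 0.946) no longer passed in limma. Kcnj12 then fell below the filter of 1 RPKM and was not tested, and the same held for Kcnk15 without replicate 2. Of the 54 other channel genes 1 was called, against 0.535% of all other symbols. The median SD of these 54 was 0.14 on the log2 scale, and that of all other symbols was 0.14 as well.

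The called gene with another symbol was Hcn2, with an SD of 0.73 on the log2 scale against a prior SD of 0.16 (adjusted p = 0.0272, limma). With digit-extended symbols left out of the fit, where 0.936% of genes were called, Hcn2 was again called (adjusted p = 5.45e-05, limma) and was the only one of 54 channel genes. The call was lost in some settings. Adjusted p in limma was 0.0507 with no filter on low genes, 0.624 with a non-robust prior, 0.497 without replicate 1 and 0.0678 without replicate 2. Hcn4 did not pass, at an SD of 0.40 (adjusted p = 0.589, limma).

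**Figure D4:**
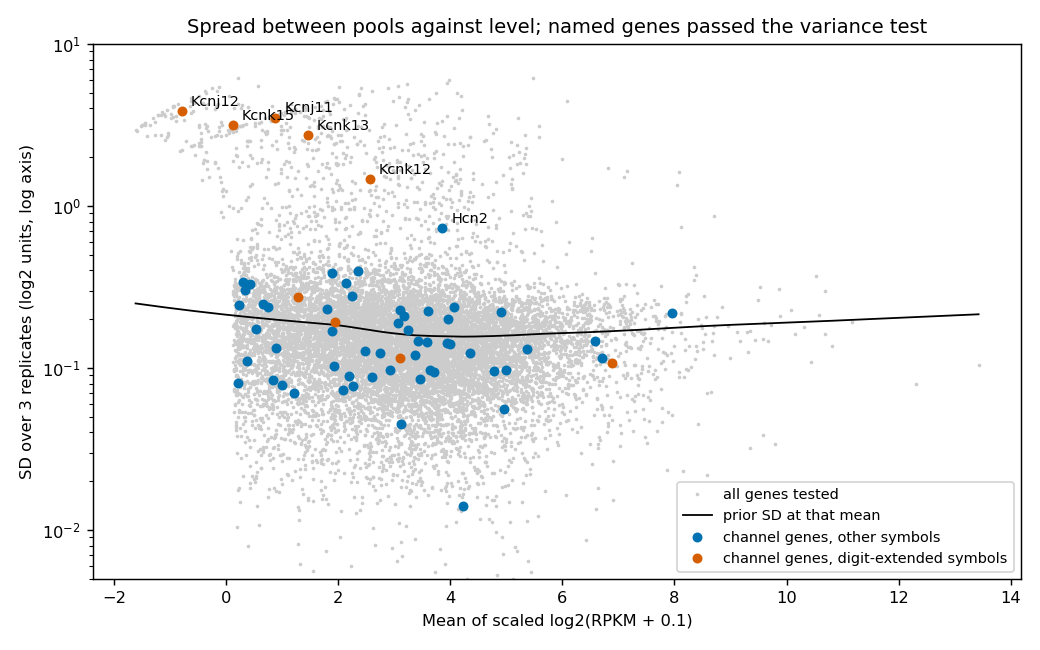
SD over 3 replicates (log axis) against mean level for all genes tested (grey), channel genes with other symbols (blue) and with digit-extended symbols (orange), with the prior SD as a line. Among the channel genes with other symbols only Hcn2, at 0.73, passed the test, and the 5 orange genes that passed lie above it.

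Base composition was set beside this result, and its part in the Hcn2 call was not tested. The Hcn2 transcript has 65.4% GC, more than nearly all genes tested (percentile 99.6), and those of Hcn3 and Hcn4 have 58.0% each. In the 3099 genes of highest GC content (from 55.5%), the median deviation from the mean of the replicates was 0.11 in replicate 1, -0.003 in replicate 2 and -0.10 in replicate 3. Hcn2 had its highest value in replicate 1, as in that median, but its lowest in replicate 2, where the median was lowest in replicate 3. After a trend on GC content was removed from each replicate, a setting chosen after the data were seen, Hcn2 no longer passed (adjusted p = 0.169, and 0.0994 without digit-extended symbols, limma). The larger adjusted p was not particular to Hcn2. The called digit-extended genes also had larger values than before and still passed, such as Kcnk12 at 0.0203 against 0.00106 (limma). After a trend on length was removed, adjusted p was 0.0758 with all genes and 0.0278 without digit-extended symbols (limma).

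The bases before the Hcn2 start are shown because Hcn2 was that called gene. The sequence covers 250 bases (GRCm38.p6, chr10:79716384-79716633, plus strand) with 70.4% GC, and capitals mark the 3 matches to the reverse complement of the GC box letters GGGCGG.

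Hcn2: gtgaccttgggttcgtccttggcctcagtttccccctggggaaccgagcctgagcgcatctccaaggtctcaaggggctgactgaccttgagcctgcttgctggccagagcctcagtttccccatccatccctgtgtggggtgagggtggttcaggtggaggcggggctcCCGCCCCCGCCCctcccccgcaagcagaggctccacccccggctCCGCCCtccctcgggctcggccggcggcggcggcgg

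The order of the replicates was then counted for each channel gene, as a description with no test. After scaling, 38 of the 63 tested (60.3%) were lowest in replicate 2, against 34.4% of all genes. Only 7 (11.1%) were highest in replicate 2, against 34.7%. Replicate 1 was highest for 29, against 30.2% of all genes, and replicate 3 for 27, against 35.1%. Without scaling, 22 of 63 were lowest in replicate 2, against 14.4% of all genes. With median centring, 38 of 63 were, against 30.8%. The scaling factors were 0.984, 1.09 and 0.931, or -0.02, 0.13 and -0.10 on the log2 scale.

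Transcript length moved with this order. In unscaled levels the summed cornea and muscle markers were highest in replicate 2, although the cornea markers Krt12 and Dcn were not. Without scaling, 64.3% of all genes tested were highest in replicate 2 as well. The part of these markers in the order was not tested. The median transcript length was 3707 bases for the channel genes tested and 2908 for all genes tested. In the 3098 longest genes (from 4316 bases) the median deviation of replicate 2 was -0.13 on the log2 scale, and in the 3099 shortest it was 0.12. Of the channel genes among the longest, 22 of 22 were lowest in replicate 2, against 68.9% of all genes there. Among the shortest 0 of 8 were, against 11.8%. After removal of the length trend, 30 of 63 channel genes were lowest in replicate 2, against 29.5% of all genes. After removal of the GC trend, 42 were, against 37.7%.

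**Figure D5:**
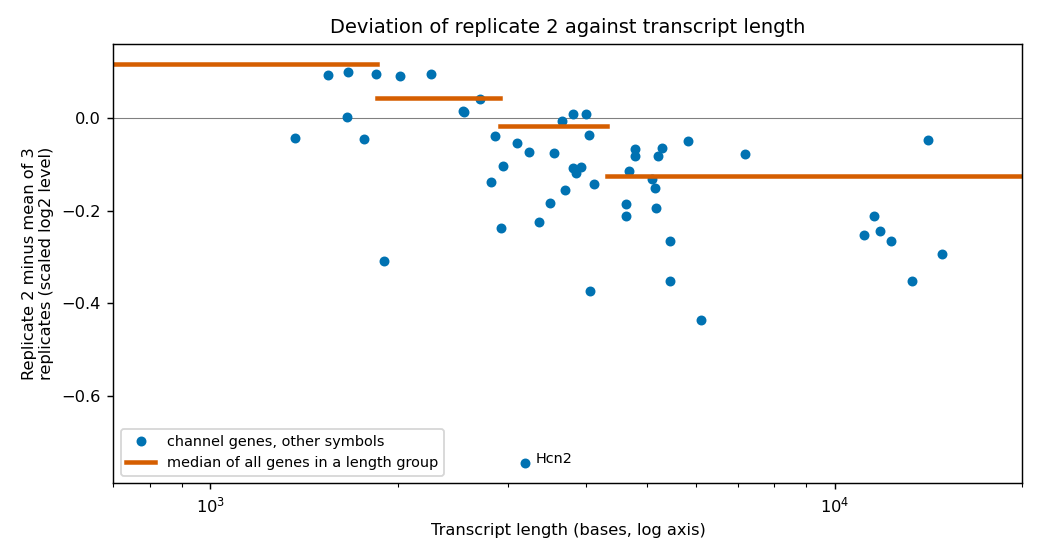
Deviation of replicate 2 from the mean of the 3 replicates (scaled log2 level) against transcript length (log axis) for channel genes with other symbols, with the median of all genes in each of 4 length groups as lines. The lines go from 0.12 for the shortest genes to -0.13 for the longest, most long channel genes lie below 0, and Hcn2 lies farthest below.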

How the data were processed

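The authors deposited 1 table for each biological replicate, which both technical replicates name, with a gene symbol and a value that was taken as RPKM. The unit is inferred from the deposited values, which multiplied by transcript length (kb) added up to 785335, 828466 and 728590. It may as well be FPKM. The tools, per the submitters' processing notes, were GSNAP and HTSeq and the build was mm9, with no versions. Which annotation served for counting was not given in the sources used here, and all tables had 15468 rows, and 3 symbols on 2 rows with identical values were kept once. The smallest non-zero value was 0.01, the rounding step, so whole reads could not be recovered from low values.

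Transcript length and GC content (GENCODE M21, medians over transcripts linked to RefSeq, 98.5% of genes) and the promoter windows (RefSeq GRCm38.p6) were matched by symbol. No reads were recounted.

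Ratios and tests used log2(RPKM + 0.1), which understates differences of low genes. For the variance test, columns were divided by factors from a trimmed mean of gene log ratios, with 30% trimmed on the ratio and 5% on the level at either end. Variances were tested with limma 3.58.1 in R 4.3.3 (statmod 1.5.0) by an F test against the robust trended prior, with Benjamini-Hochberg adjusted p-values over all genes of a mean of 1 RPKM or more. The test was tested on simulated data. Levels are as deposited. The pools are the replicates, and nothing says whether they differ in preparation day. Digit-extended symbols (2656 genes) are symbols that begin with another symbol of the files or RefSeq directly followed by a digit, or are that shorter symbol.

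The channel genes, lists, tests and alternatives were chosen with earlier results of these data known. Named are the first and second gene of each subfamily, the 20 of highest mean, all HCN and silent subunit genes, called genes and genes at 0. Results for some genes are not reported here, although counts and sums include them. The remaining channel genes were named, after their values were seen, to account for the genes of a subfamily that have a row. The motifs were searched on both strands and chosen after levels were seen. The deposited tables held 0 columns that were not used.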

Additional observations from a re-analysis of the deposited data

How the results depend on the processing

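The number of channel genes called as varying was 6. It was 0 with a non-robust prior (6 at an unadjusted p under 0.05, limma), 1 without digit-extended symbols, and between 3 (without replicate 3) and 5 with 1 replicate left out. With a trend removed as well as digit-extended symbols it was 1 for length and 0 for GC content, the latter with 3 at an unadjusted p under 0.05, both added after seeing the data. The median share of the leading gene over subfamilies, 59.4%, became 63.2% with RPKM multiplied by length and 62.2% without digit-extended symbols. The share of the pore-forming Kv genes, 40.0%, became 58.4% and 46.5%. On the log2 scale, multiplication by length moved the median ratio of leading to second gene from 1.49 to 1.17, and with 1 replicate left out it lay between 1.27 (without replicate 3) and 1.41. The causes were not tested, except that longer transcripts gain in the product with length. Counts by level kept within 1.5 times under every setting run, with 46 genes detected at 2 RPKM and 61 at 0.5 against 57. No paired analysis was possible because there is 1 group.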
